A study of Homo sapiens with 6 samples.

Results

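The Hippo pathway genes described here are the coactivators *WWTR1* (which encodes TAZ) and *YAP1*, the DNA-binding factors *TEAD1* to *TEAD4*, the kinase *LATS2*, the targets *CTGF* (now *CCN2*) and *CYR61* (now *CCN1*), and the scaffold *AMOTL2*. They were found by symbol in the count table, where all 10 were present among 26485 gene names and all 10 were among the 14877 genes that passed the filter on low counts. They were chosen with their knockdown and control values, including the log2 fold changes, already known, so their differences are given as a description. Where the test over all genes is mentioned for them, nothing is read from it.

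RNA-seq was performed on 3 cultures of HEK293 cells after *HSALNG0134318* knockdown and on 3 control cultures. HEK293 is a transformed cell line from human embryonic kidney, and *HSALNG0134318* is a long noncoding RNA of the 22q11.2 region, a region whose deletion is linked to congenital kidney anomalies. Knockdown was by transient transfection of a Smart Silencer, a reagent that combines siRNAs with antisense oligonucleotides against this RNA. The controls are given as WT under genotype and NC in the description, and what they were transfected with is not given in the sources used here. Apart from the knockdown, no genotype or treatment is given that separates the groups, and all 6 cultures are of the same line. *HSALNG0134318* has no row under that name in the table, so the labels could not be checked on the silenced RNA.

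In the Hippo pathway, the kinases MST1 and MST2 (genes *STK4* and *STK3*) activate LATS1 and LATS2, which phosphorylate YAP and TAZ and hold them in the cytoplasm or send them to degradation. When the kinases are inactive, YAP and TAZ enter the nucleus, bind TEAD factors and switch on genes such as *CTGF* and *CYR61*. *LATS2* and *AMOTL2* are themselves target genes that feed back on YAP and TAZ, and the pathway controls growth and epithelial differentiation in the developing kidney.

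Total counts ran from 13900965 to 15583535 in the knockdown cultures and from 14732648 to 16869948 in the control cultures. Control replicate 2 stood apart, with a root mean square difference of 0.445 and 0.485 on the log2 scale from the other controls, which lay 0.369 apart, while the knockdown cultures lay from 0.271 to 0.315 apart. Cultures of different groups lay from 0.397 to 0.545 apart. Control replicate 3 lay closer to each knockdown culture (from 0.397 to 0.413) than to control replicate 2, so the spread among controls was as large as part of the difference between groups. Values without control replicate 2 are therefore given for the 10 genes and for the genes called below. All 6 HEK293 markers (*PAX2*, *NEFM*, *NEFL*, *VIM*, *KRT8* and *KRT18*) were detected, summing to between 1240 and 1688 CPM (counts scaled to the same library total) in control and between 1444 and 1803 in knockdown cultures. Under 1 CPM in every culture were all 5 markers of differentiated kidney cells, with *UMOD* at 0 throughout, all 3 endothelial markers and 3 of 4 leukocyte markers, with *CD3E* at 0. Of 5 fibroblast markers, 4 reached that level, their list summing to between 41.4 and 55.4 CPM in control and between 45.0 and 63.8 in knockdown cultures, and no marker of any list was called. The lowest count among the 10 genes was 106, for *CTGF* in knockdown replicate 2, with an exact Poisson interval (95%) from 86.8 to 128, and the highest was 2852, for *TEAD1*. That interval covers counting error only.

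TEAD factors recognise the 6-base motif GGAATG, or CATTCC on the opposite strand. The motif was searched on both strands of promoter windows from RefSeq on GRCh38.p14, each holding 250 bases before and 50 bases after an annotated gene start. Windows were found for 7 of the 10 genes, 10 windows in all, and none for *TEAD1*, *TEAD4* and *CYR61*. The motif was in windows of *YAP1*, *LATS2*, *CTGF* and *AMOTL2*, while 14% of all 35116 windows hold it. The *CTGF* window held 3 copies, whose first bases lie at positions -169, -104 and -95 from the start, and 3 or more copies are found in 0.128% of all windows. *YAP1* held 1 copy at -162, the second window of *AMOTL2* held 1 on the opposite strand at -69, and *LATS2* held 1 at position 10 after the start. Windows of *WWTR1*, *TEAD2* and *TEAD3* did not hold these letters. The bases around the upstream copies are shown, with the motif in capitals, because TEAD factors are the DNA-binding partners of YAP and TAZ. They are chr6:131951373-131951572 (minus strand) for *CTGF*, chr11:102110258-102110317 (plus strand) for *YAP1* and chr3:134374484-134374543 (minus strand) for *AMOTL2*.
CTGF: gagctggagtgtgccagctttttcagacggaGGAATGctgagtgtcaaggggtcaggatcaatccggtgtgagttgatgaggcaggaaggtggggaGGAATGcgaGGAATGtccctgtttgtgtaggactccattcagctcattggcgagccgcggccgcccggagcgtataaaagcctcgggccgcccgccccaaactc
YAP1: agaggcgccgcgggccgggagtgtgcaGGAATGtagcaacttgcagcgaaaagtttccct
AMOTL2: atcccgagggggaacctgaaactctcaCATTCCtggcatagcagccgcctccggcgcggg
A match of letters does not show that a factor binds there.

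Of the 10 genes, *WWTR1* was the lowest in the knockdown cultures relative to control and *CYR61* was the highest, while *YAP1*, *TEAD4* and *AMOTL2* lay near 0 on the log2 scale. *TEAD1*, *TEAD2*, *TEAD3* and *LATS2* were lower by between 0.22 and 0.34 on the log2 scale. Of the 10 log2 fold changes 8 were below 0 and 2 above, with a median of -0.23, against -0.02 over all genes tested. *WWTR1* and *CYR61* were past the threshold of an adjusted p under 0.05 in edgeR's quasi-likelihood test over all genes, which makes 2 of 10 where 10% of all genes passed. In normalized counts, the 3 knockdown values lay outside the control range in 6 of the 10 genes, where the same held for 32.2% of all genes tested. Among those 6, *TEAD1* and *LATS2* overlapped when levels were taken in TPM, as given below. Since the genes were chosen on this contrast, nothing is read from either share.

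Levels are given as normalized counts, in which each count was scaled to the mean effective library size (by TMM) of the 6 cultures. Log2 fold changes are of knockdown over control, with their standard error (SE) from edgeR.

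**Figure D1:**
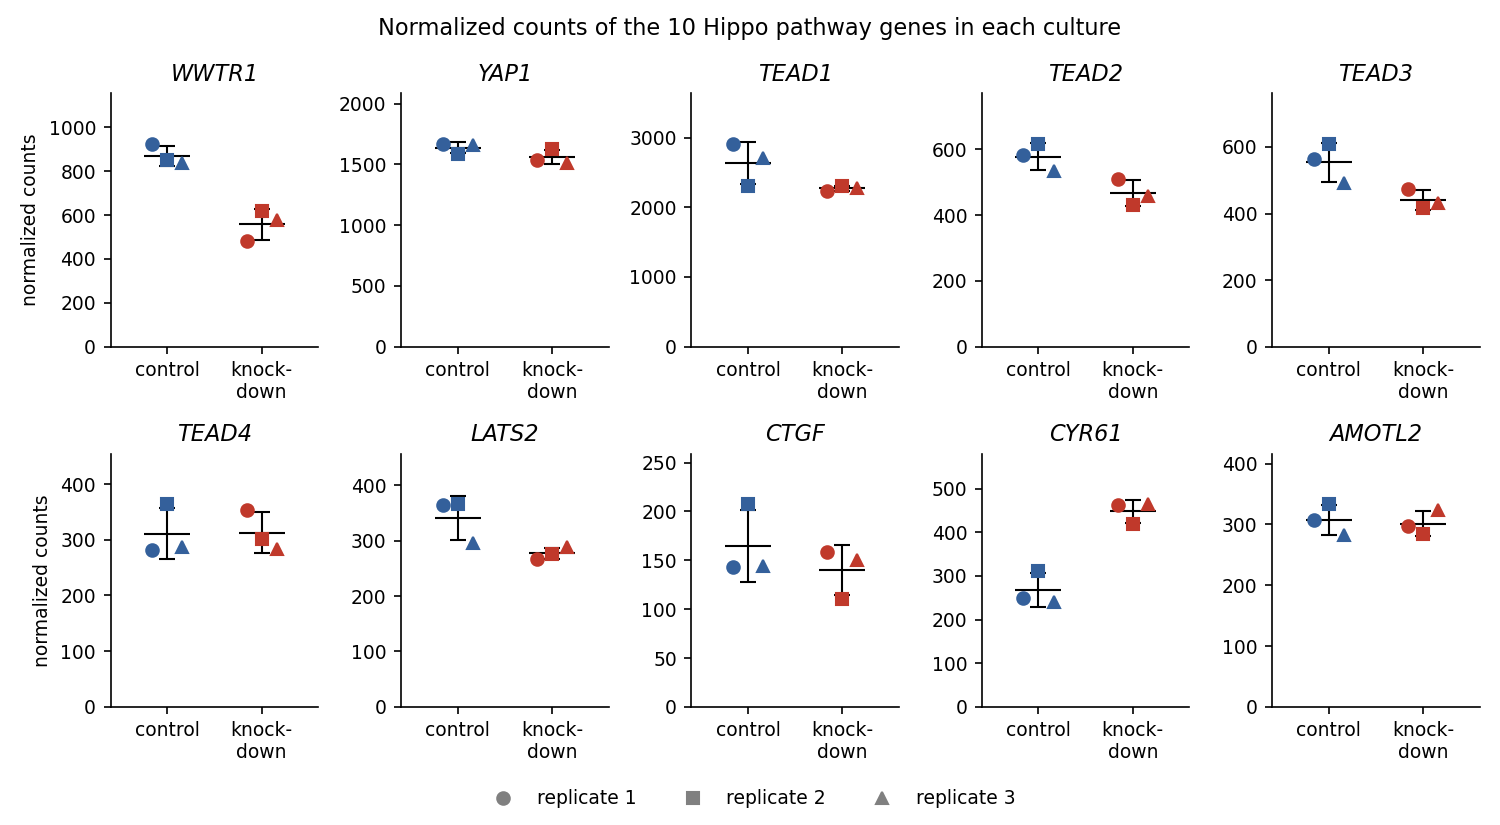
Normalized counts (vertical axes, each from 0) of the 10 genes in the 3 control (blue) and 3 knockdown (red) cultures, with the replicate shown by the symbol, the mean as a line and the SD (n = 3) as bars. The groups are apart in *WWTR1*, lower after knockdown, and in *CYR61*, higher after knockdown, while *YAP1*, *TEAD4*, *CTGF* and *AMOTL2* overlap.

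The coactivators differed from each other. *WWTR1* (chr3:149517235-149736714, minus strand, hg38) had 923, 852 and 837 normalized counts in control replicates 1, 2 and 3 and 481, 617 and 575 in knockdown replicates 1, 2 and 3. Every knockdown culture lay below every control culture, with knockdown replicate 1 the lowest. The means were 871 ± 45.9 (SD, n = 3) in control and 558 ± 69.5 in knockdown cultures, and the knockdown level was 64.0% of control (log2 fold change of -0.64, SE 0.12). Among the 14877 genes tested, this log2 fold change ranked 652nd from the lowest. It was -0.66 without control replicate 2 and lay between -0.72 and -0.55 when any 1 culture was left out. As in any bulk sample, fewer cells with the RNA and less RNA per cell cannot be told apart.

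*YAP1* (chr11:102110447-102233424, plus strand) encodes the paralog of TAZ. It had 1667, 1583 and 1658 normalized counts in control replicates 1, 2 and 3 and 1539, 1628 and 1514 in knockdown replicates 1, 2 and 3, so the groups overlapped. The log2 fold change was -0.07 (SE 0.08), with a 95% interval from -0.25 to 0.12. It was -0.09 without control replicate 2 and stayed between -0.10 and -0.05 when any 1 culture was left out. In TPM (counts per exon length, scaled to the same sum in every culture), *WWTR1* made up 29.5%, 28.9% and 27.6% of the summed *WWTR1* and *YAP1* level in control replicates 1, 2 and 3. In knockdown replicates 1, 2 and 3 it made up 19.1%, 22.2% and 22.3%. The size of these shares depends on the exon lengths used. Per coding length, the control means were 63.8 TPM for *WWTR1* and 102 TPM for *YAP1*. The share of *WWTR1* was thus lower in each knockdown culture than in any control culture, while the summed level of both overlapped between groups, from 116 to 135 TPM in control and from 106 to 118 TPM in knockdown cultures.

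Some genes of the table overlap the 10 genes. *WWTR1-AS1*, a long noncoding RNA on the opposite strand with exons that overlap *WWTR1*, had from 1 to 7 counts per culture, at most 1.20% of the *WWTR1* count. The labels name a stranded library protocol, but the strand setting of the counting is not given in the sources used here. *CD37* overlaps exons of *TEAD2* on the opposite strand and had from 70 to 119 counts, up to 22.5% of the *TEAD2* count. *LINC01013*, opposite *CTGF*, had at most 1 count.

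The TEAD factors bind DNA for YAP and TAZ, and the genes encode closely related proteins. *TEAD1* (chr11:12674421-12944737, plus strand) had 2910, 2309 and 2705 normalized counts in control replicates 1, 2 and 3 and 2240, 2309 and 2275 in knockdown replicates 1, 2 and 3. Control replicate 2 lay less than 1 normalized count above knockdown replicate 2, so the groups were only just apart. In TPM they overlapped, with control replicate 2 at 70.9 and the knockdown cultures from 73.5 to 76.7. The log2 fold change was -0.22 (SE 0.10), and without control replicate 2 it was -0.30.

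*TEAD2* (chr19:49340595-49362457, minus strand) had 582, 616 and 535 normalized counts in control replicates 1, 2 and 3 and 511, 431 and 459 in knockdown replicates 1, 2 and 3, a log2 fold change of -0.31 (SE 0.12). *TEAD3* (chr6:35473597-35497079, minus strand) had 563, 609 and 492 in control and 473, 415 and 430 in knockdown replicates in the same order, a log2 fold change of -0.34 (SE 0.12). In both genes the lowest control culture, replicate 3, was above the highest knockdown culture, replicate 1. Without control replicate 2 the log2 fold changes were -0.26 for *TEAD2* and -0.26 for *TEAD3*. *TEAD4* (chr12:2959330-3040676, plus strand) had 282, 363 and 287 in control and 354, 301 and 283 in knockdown replicates. Its highest culture in each group, control replicate 2 and knockdown replicate 1, stood above the others, and the groups overlapped. The log2 fold change of *TEAD4* was 0.01 (SE 0.15, 95% interval from -0.31 to 0.33). Its sign changed with the culture left out, from -0.09 without knockdown replicate 1 to 0.14 without control replicate 2.

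The summed level of the 4 TEAD genes was 280, 257 and 251 TPM in control replicates 1, 2 and 3 and 243, 224 and 228 TPM in knockdown replicates 1, 2 and 3. Every knockdown sum was below every control sum. The share of *TEAD4* in that sum was 18.0% ± 2.27 (SD, n = 3) in control and 21.1% ± 1.40 in knockdown cultures, and that of *TEAD1* was 32.6% ± 4.32 and 32.7% ± 2.15. The control spread of both shares came with control replicate 2, in which *TEAD1* took 27.6% and *TEAD4* 20.4%.

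**Figure D2:**
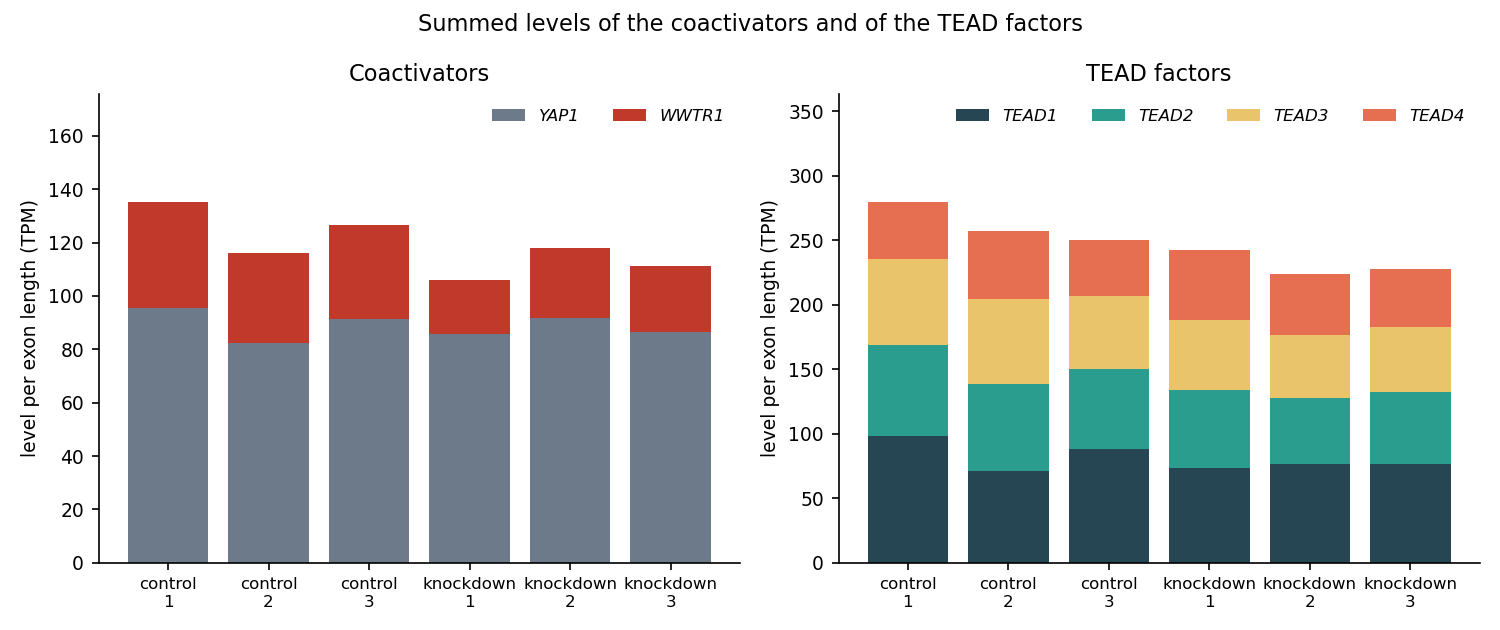
Levels per exon length (TPM, vertical axes from 0) of the coactivators (left) and of the TEAD factors (right), stacked for each control and knockdown culture. The *WWTR1* part is smaller in every knockdown culture, from 20.2 to 26.2 TPM against 33.5 to 39.9 TPM in control cultures, while the *YAP1* part runs from 82.5 to 95.4 TPM over both groups.

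Between genes, levels can be compared only per length. In control cultures, *YAP1* (89.8 ± 6.61 TPM, SD, n = 3) and *TEAD1* (85.7 ± 13.8 TPM) were the most abundant of the 10 genes per exon length, and their values overlapped. They were followed by *TEAD2* (67.0 ± 4.06 TPM) and *TEAD3* (62.8 ± 5.79 TPM), which overlapped with each other, then *TEAD4* (47.0 ± 4.74 TPM) and *WWTR1* (36.1 ± 3.35 TPM). *CYR61*, *CTGF* and *LATS2* overlapped in that order at 24.9 ± 2.61, 24.2 ± 4.26 and 21.0 ± 2.54 TPM, and *AMOTL2* was lowest at 16.4 ± 1.04 TPM. In knockdown cultures, *CYR61* reached 43.1 ± 2.60 TPM and *WWTR1* 23.8 ± 3.15 TPM, so their order was exchanged. The order depends on the length used, since per coding length *TEAD1* (190 TPM) and *YAP1* (102 TPM) were followed by *WWTR1* (63.8 TPM), ahead of *TEAD2* (39.2 TPM), in control cultures.

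*LATS2* (chr13:20973036-21061586, minus strand) encodes a kinase that phosphorylates YAP and TAZ and is also among their target genes. It had 363, 365 and 295 normalized counts in control replicates 1, 2 and 3 and 267, 276 and 288 in knockdown replicates 1, 2 and 3. The groups were apart in normalized counts, but control replicate 3 lay only just above knockdown replicate 3. In TPM they overlapped, with control replicate 3 at 18.3 and knockdown replicate 3 at 18.5. The log2 fold change was -0.30 (SE 0.13), or -0.25 without control replicate 2. *AMOTL2* (chr3:134355347-134375479, minus strand), a target gene whose product, an angiomotin, binds and restrains YAP and TAZ, had 307, 333 and 283 in control and 297, 284 and 324 in knockdown replicates. Its groups overlapped, with a log2 fold change of -0.03 (SE 0.13, 95% interval from -0.31 to 0.25), whose sign changed to 0.03 without control replicate 2.

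*CYR61* and *CTGF* encode secreted matricellular proteins of the same family, and both serve as standard readouts of YAP and TAZ. *CYR61* (chr1:85580761-85584589, plus strand) had 249, 312 and 241 normalized counts in control replicates 1, 2 and 3 and 463, 418 and 464 in knockdown replicates 1, 2 and 3. Every knockdown culture was above every control culture, and the highest control was replicate 2. The means were 267 ± 39.2 (SD, n = 3) in control and 448 ± 25.9 in knockdown cultures, 1.67-fold higher (log2 fold change of 0.74, SE 0.13). The log2 fold change was 0.87 without control replicate 2 and lay between 0.68 and 0.87 when any 1 culture was left out.

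*CTGF* (chr6:131948176-131951372, minus strand) did not share this pattern. It had 143, 207 and 144 normalized counts in control replicates 1, 2 and 3 and 158, 111 and 150 in knockdown replicates 1, 2 and 3. Both the highest control culture, replicate 2, and the lowest knockdown culture, replicate 2, stood away from the rest, and the groups overlapped. The log2 fold change of *CTGF* was -0.24 (SE 0.20, 95% interval from -0.68 to 0.20), and it was -0.04 without control replicate 2. So within these cultures the *CYR61* and *CTGF* differences had opposite signs, and that of *CTGF* was smaller than the spread between replicates.

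**Figure D3:**
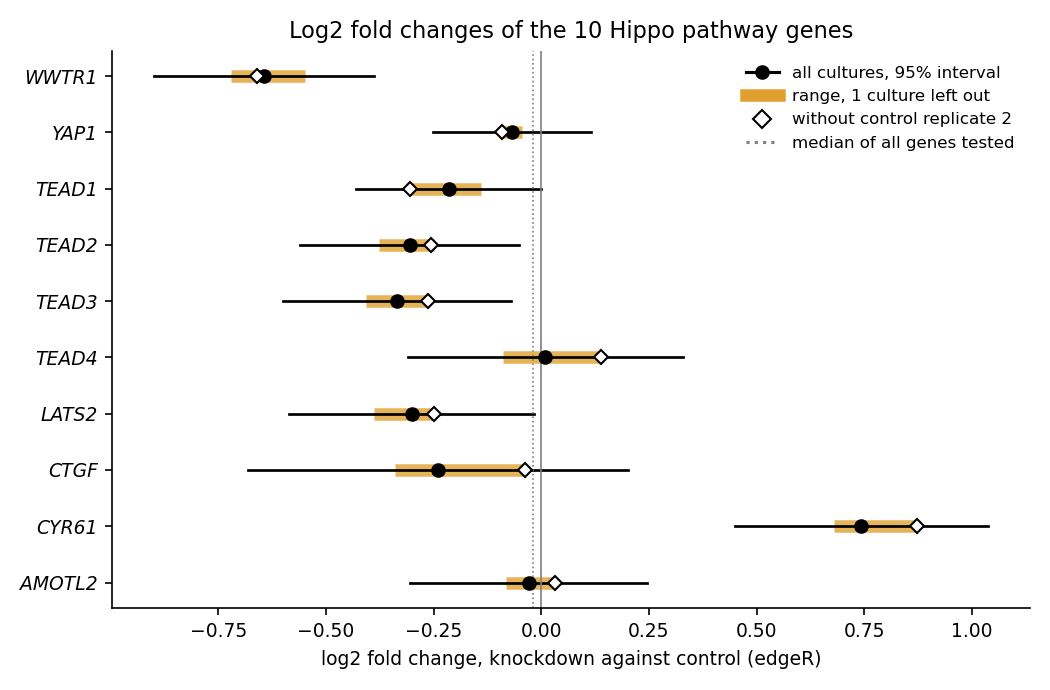
Log2 fold changes of the 10 genes (horizontal axis, knockdown against control) from edgeR with all cultures (points) and 95% intervals (lines), their range when 1 culture is left out (bars), the value without control replicate 2 (diamonds), and the median of all genes tested (dotted line). *WWTR1* stays between -0.72 and -0.55 and *CYR61* between 0.68 and 0.87, whereas *TEAD4* and *AMOTL2* cross 0 and *CTGF* reaches -0.04.

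The other genes of the pathway were taken from 4 lists and tested in the same fit. Over all genes tested, 4.64% were called lower and 5.40% were called higher. In the kinase cassette and its upstream regulators, 28 of 29 genes were tested, of which 2 were called lower, 1 was called higher and 25 were not called (median log2 fold change of -0.09). *MOB1A*, the coactivator of the LATS kinases, stood at 1500 ± 177 normalized counts (SD, n = 3) in control and fell to 1045 ± 53.5 in knockdown cultures, which is -0.52 on the log2 scale (SE 0.10, adjusted p of 0.0105 from edgeR). *DCHS1*, a cadherin that acts upstream of the pathway as the ligand of FAT4, fell from 347 ± 75.9 to 211 ± 18.7 (log2 fold change of -0.72, SE 0.17, adjusted p of 0.0230). *MAP4K4*, a kinase that can activate LATS in parallel to MST1 and MST2, rose from 3454 ± 547 to 4756 ± 20.7 (log2 fold change of 0.46, SE 0.11, adjusted p of 0.0230). In all 3 genes, named because they were called on these values, the knockdown values lay outside the control range. The same held for 6 of the 28 tested genes of the list and for 32.2% of all genes tested. Without control replicate 2 the log2 fold changes were -0.59 for *MOB1A*, -0.63 for *DCHS1* and 0.36 for *MAP4K4*. The call of *MOB1A* was lost without knockdown replicate 1 or 3, and those of *DCHS1* and *MAP4K4* without any of the knockdown cultures or control replicate 1. Of the central kinases and their scaffold, chosen for mention after their values were seen, *LATS1* (-0.09), *STK3* (-0.09), *STK4* (-0.04) and *SAV1* (-0.05) lay near 0 on the log2 scale, none of them called. The kinase *LATS2*, described above, was lower (-0.30), and so was *MOB1B*, the paralog of *MOB1A* (-0.45), neither of them called. *TAOK1* and *FAT1*, the most abundant genes of the list by count, were not called either (-0.16 and 0.14). Leaving out knockdown replicate 1 or 3 brought the number called to 0, leaving out knockdown replicate 2 or control replicate 1 brought it to 1, and it was 9 when control replicate 2 and 6 when control replicate 3 was left out. Over all genes, 1494 were called with all cultures. That number was 593, 536 and 530 without knockdown replicates 1, 2 and 3. It was 669, 2512 and 2081 without control replicates 1, 2 and 3, so the count in the list fell and rose with the count over all genes.

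The STRIPAK complex holds protein phosphatase 2A and removes the activating phosphate from MST1 and MST2. Of its 16 genes 15 were tested, of which 5 were called lower, none was called higher and 10 were not called. Their median log2 fold change was -0.28, against -0.02 over all genes tested, and 13 were negative and 2 positive. *PPP2R1B* and *PPP2CB*, which encode a scaffold and a catalytic subunit of the phosphatase, had log2 fold changes of -0.43 (SE 0.09, adjusted p of 0.0102 from edgeR) and -0.45 (SE 0.12, adjusted p of 0.0381). Their more abundant paralogs *PPP2R1A* (-0.11) and *PPP2CA* (-0.28) were not called. *STRN3*, a striatin that serves as a regulatory subunit, fell from 807 ± 74.9 to 541 ± 66.7 normalized counts (log2 fold change of -0.58, SE 0.12, adjusted p of 0.0140). *SLMAP*, which brings the complex to MST1 and MST2, had a log2 fold change of -0.52 (SE 0.11, adjusted p of 0.0132), and *STRIP2* had one of -0.35 (SE 0.10, adjusted p of 0.0421). Without control replicate 2 the log2 fold changes were -0.45 for *PPP2R1B*, -0.38 for *PPP2CB*, -0.65 for *STRN3*, -0.61 for *SLMAP* and -0.36 for *STRIP2*. Each of the 5 calls was lost without 2 or more of the other cultures, and *STRIP2* was also lost when no filter on low counts was used (adjusted p of 0.0558 from edgeR) and with a block for the replicate number (0.130). The number called was 2 with knockdown replicate 1 left out, 1 with any of knockdown replicate 2, knockdown replicate 3 or control replicate 1 left out, and 7 and 6 with control replicate 2 or 3 left out. As given above, the number over all genes fell and rose with the same cultures, so these changes are not particular to STRIPAK.

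Among genes whose products bind YAP and TAZ or serve in their turnover, 21 of 23 were tested, of which 2 were called lower, 2 were called higher and 17 were not called (median log2 fold change of -0.04). *AMOTL1* (chr11:94706431-94876748, plus strand), which encodes another angiomotin, was the gene furthest from 0 in this list. It had 1580, 1432 and 1934 normalized counts in control replicates 1, 2 and 3 and 3351, 3274 and 3364 in knockdown replicates 1, 2 and 3. The knockdown cultures lay close together and far above every control culture, with a log2 fold change of 1.01 (SE 0.11, adjusted p of 0.00033 from edgeR). *AMOTL1* was 0.92 on the same scale without control replicate 2, and it was called in all 14 alternative settings, whereas *AMOT*, the most abundant angiomotin by count, was not called (0.08). *YWHAG*, a 14-3-3 protein gene of the family that holds phosphorylated YAP and TAZ in the cytoplasm, rose from 3492 ± 333 to 4947 ± 156 (log2 fold change of 0.50, SE 0.09, adjusted p of 0.0070). The other 14-3-3 genes of the list, given as a family after their values were seen, were not called and lay on both sides of 0. *YWHAE* (0.12), *YWHAH* (0.14) and *YWHAQ* (0.08) were above it. *YWHAZ* (-0.07), *YWHAB* (-0.26) and *SFN* (-0.63) were below it, and the groups did not overlap in *YWHAB* and *SFN*. *BTRC* and *FBXW11* encode the β-TrCP proteins, which mark YAP and TAZ for degradation, and both fell, with log2 fold changes of -0.42 (SE 0.10, adjusted p of 0.0216) and -0.37 (SE 0.09, adjusted p of 0.0276). With knockdown replicate 2 left out 1 gene was called, and with knockdown replicate 3 or control replicate 1 left out 2 were called, against 6 with control replicate 2 left out. The number over all genes also fell or rose when these cultures were left out. *YWHAG* missed the threshold without knockdown replicate 2 (adjusted p of 0.0503 from edgeR). *BTRC* missed it without knockdown replicate 2 (0.129), knockdown replicate 3 (0.122) or control replicate 1 (0.0781). *FBXW11* missed it without any of the knockdown cultures (from 0.101 to 0.133), without control replicate 1 (0.0951) and with a block for the replicate number (0.0602). Without control replicate 2 the log2 fold changes were 0.43 for *YWHAG*, -0.42 for *BTRC* and -0.38 for *FBXW11*.

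Beyond *LATS2*, *CTGF*, *CYR61* and *AMOTL2*, 18 other YAP and TAZ target genes were tested, and edgeR called 0 of them. At an unadjusted p under 0.05 there were 6 (33.3%), where 26.9% of all genes tested were. With DESeq2 3 were called, of 1770 over all genes, and with limma-voom 0, of 1465. Their median log2 fold change was -0.01, with 10 negative and 8 positive, from -0.86 to 1.02. The 6 genes, named after their values were seen, were *NUAK2* (-0.86), *ANKRD1* (-0.82) and *GADD45A* (-0.58) on the negative side and *AXL* (1.02), *CCDC80* (0.79) and *DOCK5* (0.28) on the positive side. Of the most abundant targets by count, *ASAP1* (-0.01) and *PTPN14* (-0.04) lay near 0. *GADD45A* had 833, 1382 and 648 normalized counts in control replicates 1, 2 and 3 and between 601 and 681 in knockdown cultures, so that its groups overlapped and control replicate 2 was far above the rest. *ANKRD1* had 237, 282 and 137 in control and 175, 102 and 92.3 in knockdown replicates, also with overlap. The groups did not overlap in *NUAK2*, *AXL*, *CCDC80* and *DOCK5*, which makes 4 of the 18, where the same held for 32.2% of all genes tested. *NUAK2* had only from 20 to 44 raw counts per culture and *AXL* from 16 to 55. The number called was 4 without control replicate 3, and 0 without control replicate 2, where 2081 and 2512 of all genes were called.

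**Figure D4:**
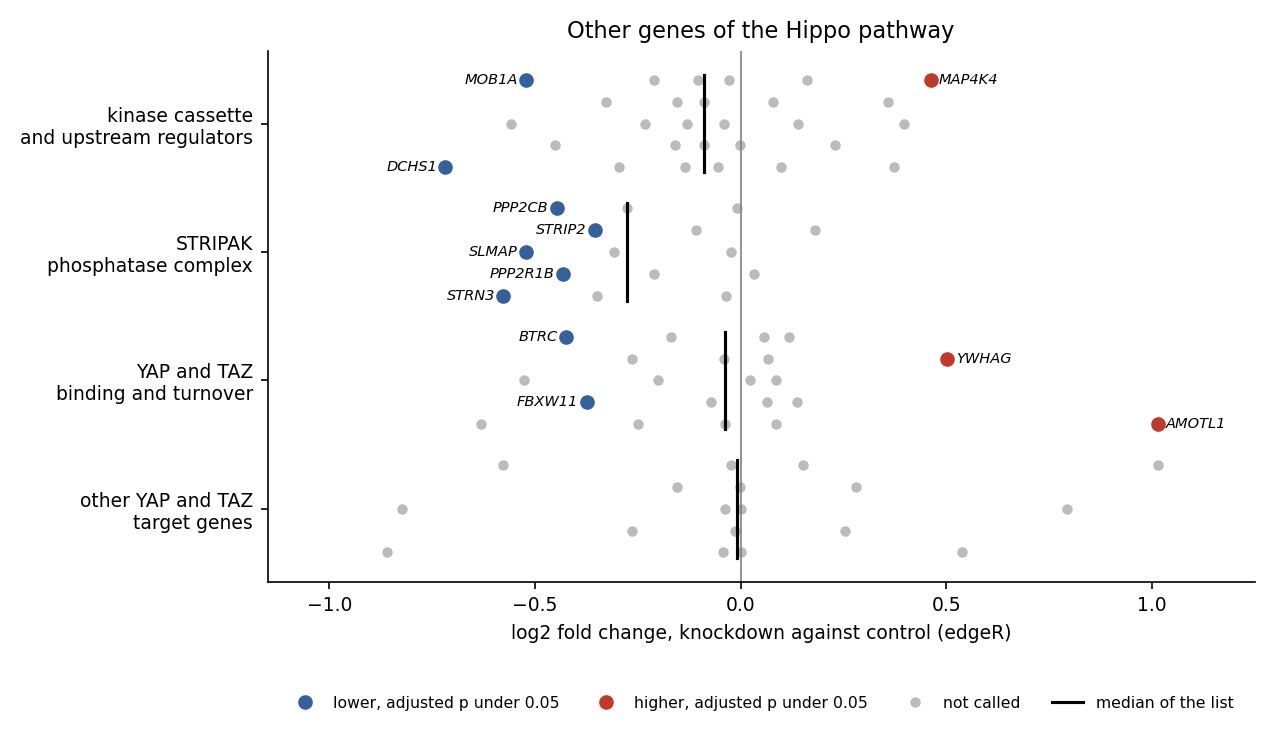
Log2 fold changes (horizontal axis, knockdown against control, edgeR) of the tested genes in the 4 lists of other Hippo pathway genes, with called genes in colour and named and the median of each list as a vertical line. The 5 called STRIPAK genes are all on the negative side, *AMOTL1* stands at 1.01, and no target gene in the lowest row is called.

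Genes whose profile was among the most like that of *WWTR1* over the 6 cultures, by Pearson r of log2 CPM among 11294 other genes whose mean count reached 100, were *ELOVL4*, *CBX3*, *DR1* and *TOR1AIP1*. Their r ran from 0.996 to 0.998, and their log2 fold changes ran from -0.75 for *TOR1AIP1* to -0.29 for *CBX3*. The 6 cultures fall into the study's 2 groups, which these values share, so r describes these cultures only.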

How the data were processed

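RNA-seq counts of 3 *HSALNG0134318* knockdown and 3 control HEK293 cultures were used. The authors deposited raw counts, whole numbers of reads assigned to each gene. Per the labels, reads were processed with FastQC 0.11.9, Trim Galore 0.6.6, STAR 2.7.9a and featureCounts 2.0.1 on hg38, and the paper's methods add removal of ribosomal RNA. The annotation, the strand setting and the handling of reads shared by several genes are not given in the sources used here. Such handling affects genes that overlap others.

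In R 4.3.3, the quasi-likelihood test of edgeR 4.0.16 (robust, no covariates) was run after filterByExpr and TMM, and p values were adjusted by Benjamini-Hochberg over all 14877 genes. The SE is the log2 fold change divided by the square root of F. With 3 cultures per group, the smallest p of a two-sided exact permutation test is 0.1. Replicate numbers follow the sample titles. Per the paper's methods, the cultures of a group were independent experiments. For TPM, exon lengths came from GENCODE release 44 (hg38), to which 23161 names matched by symbol and 1357 through a RefSeq synonym. Promoter windows came from RefSeq.

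The 10 genes, the lists and the tests were chosen with earlier results of these data known. Named genes were the 10, up to 6 called and the 2 most abundant uncalled genes per list, antisense genes, and the 5 genes most like *WWTR1*, of which 1 is not reported here. Alternatives were DESeq2 1.42.0 size factors or library sizes alone, leaving the filter out or asking for 10 counts in all cultures, a block for the replicate number, the DESeq2 Wald test, limma-voom (limma 3.58.1), each culture left out, and coding length. A correction for GC content and length (loess, span 0.3), possible for 97.3% of the genes, was chosen after seeing the data. The fits were tested on simulated data. Figures were drawn with matplotlib 3.10.9.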

Additional observations from a re-analysis of the deposited data

How the results depend on the processing

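Over the 14 alternative settings the log2 fold change ran from -0.72 to -0.55 for *WWTR1* and from 0.68 to 0.87 for *CYR61*, given as a description since both were chosen on this contrast. When 1 culture was left out, the number of all genes called ran from 530 to 2512, of the 10 genes from 2 to 3, of the kinase cassette and upstream regulators from 0 to 9, of STRIPAK from 1 to 7, of the binding and turnover list from 1 to 6 and of the other targets from 0 to 4. The third of the 10 genes was *TEAD1* without control replicate 2 and *TEAD3* without control replicate 3. With the correction for GC content and length, 2662 of all genes were called in place of 1494, 4 of the 10 genes (*TEAD1* and *TEAD3* added), 6 kinase cassette genes, 7 binding and turnover genes and 1 other target. The cause was not tested. Other targets called were 1 without a filter, 1 with at least 10 counts in every culture, 3 with DESeq2 and 2 with a block for the replicate number. The block gave 1333 calls over all genes, 2 among the 10 genes, 3 in the kinase cassette list, 4 in STRIPAK (*STRIP2* lost) and 3 in the binding and turnover list (*FBXW11* lost). Cultures with the same replicate number in the titles did not deviate together (correlations of -0.20, -0.11 and -0.04). In the descriptions, knockdown replicate 1 and control replicate 3 share the number 1, and their correlation was -0.01. These are deviations from means of 3 cultures, so they cannot exclude that cultures were paired. With 1 culture left out, the sign of *TEAD4*, *AMOTL2* and 3 uncalled genes of the lists changed, the last with log2 fold changes from -0.056 to 0.048 for *ASAP1* (positive without knockdown or control replicate 1), from -0.10 to 0.064 for *PTPN14* (positive without control replicate 1) and from -0.17 to 0.016 for *PPP2R1A* (positive without control replicate 2). The SE of the 10 genes, from 0.08 for *YAP1* to 0.20 for *CTGF*, limits which differences 3 cultures per group can show.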

Other observations

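*MOB4*, a STRIPAK subunit, and *CSNK1E*, a kinase that primes YAP and TAZ for degradation, had few reads in the table, from 1 to 4 counts and from 0 to 25 counts per culture. The readthrough genes named after them, *HSPE1-MOB4* and *LOC400927-CSNK1E*, had from 0 to 4 and from 1 to 6 counts. These counts, named after they were seen, were too low for the test.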
